A study of Mus musculus with 16 samples.

Results

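p53, encoded by Trp53 in the mouse, is a transcription factor that halts the cell cycle, aids DNA repair or triggers cell death after stress. This account follows Trp53 and 9 genes tied to it by textbook knowledge in primordial germ cells (PGCs) of the mouse, from which eggs and sperm arise. The 10 genes were chosen by symbol: Trp53, its inhibitors Mdm2 and Mdm4, and the target genes Cdkn1a, Ccng1, Perp, Sesn2, Zmat3, Trp53inp1 and Phlda3. They are 10 of the 26219 genes listed in each of the 2 expression tables, and apoptosis genes of the BCL2 family were left out. All 10 passed the filter on low values in both tables, so no member was lost to it.

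The series asks what the germ cell regulator PRDM1 (Blimp1) controls while PGCs develop, with 3′ RNA sequencing of 16 libraries. In the floxed table, 4 Control libraries carried Prdm1(flox/flox); Rosa26(neo-EYFP/+), and 4 libraries labelled CKO carried in addition Dppa3-MCMP(Tg/0), a transgene named after Dppa3, a gene that PGCs express. All 8 were C57BL/6 cells at E11.5, and by the protocol the pregnant mothers of floxed embryos, those of the controls included, received 3 mg of 4-hydroxytamoxifen per 25 g body weight at 10.5 days post coitum. In the wild-type table, Dppa3(EGFP/+) PGCs of the mixed strain ICR:C57BL/6=1:1 were sampled at E10.5, at E11.5 (sex not labelled) and, for each sex, at E13.5, with 2 libraries a group and 1 ng of RNA amplified from each. Cells from dissociated gonads were sorted by EYFP or by anti-SSEA-1 staining, and the protocol does not tie either sort to a group. Control and CKO-labelled cells may thus have been sorted differently, and such a difference could not be told apart from genotype. The labels do not say whether libraries came from separate litters or from pooled embryos, so every p-value rests on the spread among the libraries at hand, which may be technical.

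Levels are in RPM (reads scaled to the same total in every library), which are not divided by transcript length, so a level was compared for 1 gene across libraries and never between genes. Depth recovered from the RPM steps was 2798000 to 5032000 reads in the floxed and 1485000 to 4783000 in the wild-type libraries, so that 3 reads correspond to 0.596 to 2.02 RPM. All 12 germ cell markers were at 5 RPM or more in each of the 16 libraries. The summed level of 12 gonadal somatic markers was 12.9 to 73.2 RPM in Control and 10.0 to 260.2 in CKO-labelled libraries, highest in CKO 4, and the 2 libraries least like their own group were Control 1 and CKO 4 (mean correlation 0.965 and 0.964). Prdm1 itself was at 50.7 to 73.0 RPM in Control and 76.6 to 89.4 RPM in CKO-labelled libraries (log2 fold change 0.39 ± 0.12 SE, limma adjusted p = 0.164). A read near the 3′ end does not show whether the floxed exons were removed, so this checks nothing about the deletion.

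As background, p53 protein is made continuously and is kept low by MDM2, a ubiquitin ligase that marks it for destruction, while MDM4, a relative of MDM2, mainly blocks its activity. Stress signalling through kinases such as ATM, ATR and CHEK1 loosens that hold, and p53 then binds DNA as a tetramer at a pair of short abutting elements and raises its targets, Mdm2 among them. In germ cells p53 is known for removing cells with damaged DNA. Because p53 is controlled largely as a protein, the Trp53 transcript levels given here are not measures of its activity.

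The sequences below show where the p53 consensus lies near the start of these genes. RefSeq promoter windows (GRCm38.p6, 250 bases before to 50 after a start) were present for 7 of the 10 genes, in 9 windows; Perp, Zmat3 and Trp53inp1 had none. The 20-base p53 consensus, which is its own reverse complement and so covers both strands, was searched for with at most 1 mismatch. It occurred in 29 of 32851 windows of that length (0.0883%), and 2 of them were those of Ccng1 and of the upstream start of Cdkn1a. Stretches around both are printed 5′ to 3′ on the gene's strand, with the matching 20 bases in capitals, at chr17:29090888-29090975 (+) and chr11:40755422-40755521 (-).
Cdkn1a: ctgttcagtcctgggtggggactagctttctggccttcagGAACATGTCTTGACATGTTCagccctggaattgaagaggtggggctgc
Ccng1: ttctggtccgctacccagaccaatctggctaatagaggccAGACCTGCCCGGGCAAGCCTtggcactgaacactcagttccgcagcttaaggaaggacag

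A single 10-base element of that consensus, without mismatch, is far more frequent: it was in 2745 of the 32851 windows (8.36%). The windows of Mdm2 (chr10:117710915-117710964, -) and Trp53 (chr11:69580264-69580313, +) each held one. These are printed because both genes belong to the core of the pathway, with the 10 bases in capitals.
Mdm2: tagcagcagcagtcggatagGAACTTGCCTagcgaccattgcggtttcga
Trp53: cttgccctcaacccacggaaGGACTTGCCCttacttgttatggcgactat

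Among other known p53 targets, 2 of 40 windows held the 20-base consensus, those of Rps27l (GGGCTTGTTGAGACTTGTCC) and Gtse1 (GAGCAAGTTGGGGCTTGCCT, across the start site and into the first exon), against 0 of 34 windows of genes that regulate p53. These matches describe letters in a window; binding was not measured here, and p53 elements of some of these genes are known to lie elsewhere, within introns.

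Trp53 was the member that varied most in the floxed libraries, and low and high values occurred in both groups. The gene lies on chromosome 11 (chr11:69580348-69591873). Its levels were 17.4, 224, 251 and 11.54 RPM in Control 1 to 4, and 134, 99.95, 176 and 3.57 RPM in CKO-labelled 1 to 4. The highest library exceeded the lowest by 21.7 times within Control and by 49.3 times within the CKO-labelled group. Control 1, Control 4 and CKO 4 were the low libraries, the other 5 were at 99.95 RPM or above, and the groups overlapped over almost their whole range. Counting error is small beside this: the low libraries held 59, 49 and 10 Trp53 reads, the 95% Poisson interval for CKO 4 was 1.71 to 6.57 RPM, and that for Control 3 was 237 to 266 RPM (these intervals cover counting error only).

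Group means were 126 ± 129 RPM (SD, n = 4) in Control and 104 ± 73.6 RPM (SD, n = 4) in CKO-labelled PGCs, a log2 fold change of -0.06 ± 1.14 (SE) with a 95% interval from -2.50 to 2.39 (limma adjusted p = 0.995). A difference of several-fold in either direction therefore lies within the interval, and its sign changed in 7 of 19 alternative fits. Within groups, the SD of log2(RPM + 1) was 2.38 for Trp53, the third largest among 9384 tested genes, after Pf4 and Gm19592, while the median gene had 0.226. In the wild-type table the same quantity for Trp53 was 0.090, rank 9663 of 10749, below the median gene's 0.210.

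**Figure D1:**
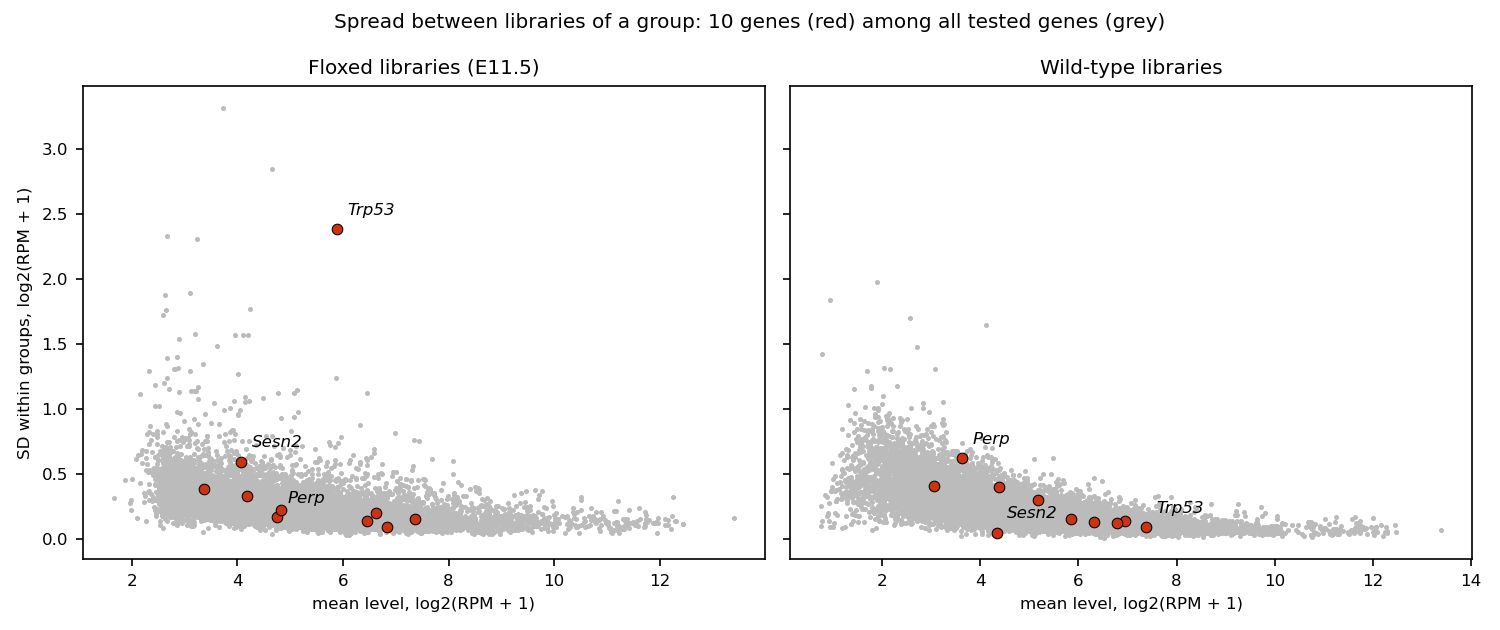
Spread between libraries of a group, as the SD of log2(RPM + 1) within groups (vertical axis), against mean log2(RPM + 1) (horizontal axis), for the tested genes (grey points) of the floxed (left) and wild-type (right) tables, with the 10 p53 pathway genes in red. Trp53 stands at 2.38 in the floxed libraries, far above the other 9 genes, and at 0.090 in the wild-type libraries.

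Levels of Wrap53 and summed markers of other cell types in the floxed libraries are given here as description. Wrap53, which starts next to Trp53 on the opposite strand, was at 28.8 to 34.4 RPM in Control and 29.0 to 39.0 RPM in CKO-labelled libraries. In Control 1, Control 4 and CKO 4, the libraries low in Trp53, the gonadal somatic marker sum was 12.9, 30.9 and 260.2 RPM. Over all floxed libraries it ranged from 10.0 to 260.2 RPM. The sum of 7 erythroid markers was 62.4, 1.18 and 34.0 RPM in those libraries, and 1.18 to 77.2 RPM over all floxed libraries. A processed copy, Trp53-ps, is annotated on chromosome 17 and has no row of its own in the tables, so the part of reads shared with it is uncertain. Control 1 and CKO 4 were also the libraries least like their own groups (mean correlation 0.965 and 0.964). The part of other cell types, of library quality or of any batch in this spread was not tested.

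Mdm2 and Mdm4, the inhibitors, were much steadier in the floxed cells. Mdm2 (chr10:117688875-117710758) was at 205, 166, 147 and 152 RPM in Control 1 to 4. It was at 159, 164, 164 and 163 RPM in CKO-labelled 1 to 4, inside the range of the controls. Its log2 fold change was -0.03 with a 95% interval from -0.26 to 0.20 (limma adjusted p = 0.958), and levels in Control 1 and CKO 4, both low in Trp53, were 205 and 163 RPM.

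Mdm4 (chr1:132986105-133030587) was at 119, 121, 120 and 137 RPM in Control and 102, 113, 101 and 97.9 RPM in CKO-labelled libraries. Every CKO-labelled library was below every Control library. Means were 124 ± 8.68 and 104 ± 6.79 RPM (SD, n = 4 each), with a log2 fold change of -0.26 ± 0.10 (SE) that did not pass the test across all genes (limma adjusted p = 0.270). It was the only member whose groups did not overlap, against 8.19% of all tested genes.

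None of the 7 targets passed the test in the floxed cells. Cdkn1a, encoding the cyclin-dependent kinase inhibitor p21 (chr17:29090979-29100722), was at 12.7, 20.9, 21.9 and 14.4 RPM in Control 1 to 4. In CKO-labelled 1 to 4 it was at 19.5, 16.1, 22.1 and 13.6 RPM. The 3 libraries lowest in Trp53 were also the 3 lowest in Cdkn1a, although Cdkn1a spanned only 12.7 to 22.1 RPM. Whether the levels of both genes go together was not tested, since these libraries can only be set apart by the measured values themselves.

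Ccng1, encoding cyclin G1 (chr11:40748552-40755309), was at 92.4, 121, 95.4 and 90.4 RPM in Control and 117, 94.6, 95.6 and 82.2 RPM in CKO-labelled libraries, and the groups overlapped. Sesn2, a sestrin of the response to oxidative and nutrient stress (chr4:132492804-132510456), was the most variable target. It was at 6.47, 14.5, 18.6 and 17.4 RPM in Control and 11.8, 28.2, 24.1 and 15.7 RPM in CKO-labelled libraries, and its lowest value in each group came from library 1. Phlda3, a repressor of Akt signalling (chr1:135766085-135769134), was at 5.30, 12.7, 9.85 and 6.12 RPM in Control and at 9.99, 9.94, 12.3 and 11.8 RPM in CKO-labelled libraries.

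Perp, a membrane protein of cell junctions and apoptosis (chr10:18845071-18857073), ranged from 20.9 to 28.9 RPM in Control and from 26.4 to 29.3 RPM in CKO-labelled libraries. Zmat3, an RNA-binding zinc finger protein (chr3:32334792-32365665), ranged from 19.7 to 30.8 and from 25.0 to 31.4 RPM. Trp53inp1, a stress-induced partner of p53 in autophagy and cell death (chr4:11156441-11174379), ranged from 84.7 to 98.6 and from 74.0 to 97.5 RPM. All 3 overlapped between groups.

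In all, 0 of the 10 genes passed the test between CKO-labelled and Control PGCs with limma (1 of 10, Mdm4, at an unadjusted p under 0.05, against 1125 of all 9384 tested genes), where 2.43% of 9384 tested genes did (228 genes; 1.93% higher and 0.501% lower). The limma fit with precision weights on recovered reads (voom) also called 0. The median log2 fold change was 0.01 over the 10 genes and -0.01 over all tested genes. The 95% intervals of the log2 fold change were narrowest for Mdm2, Mdm4, Trp53inp1 (-0.35 to 0.13) and Ccng1 (-0.32 to 0.24), and widest for Trp53 and Sesn2 (-0.21 to 1.17).

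**Figure D2:**
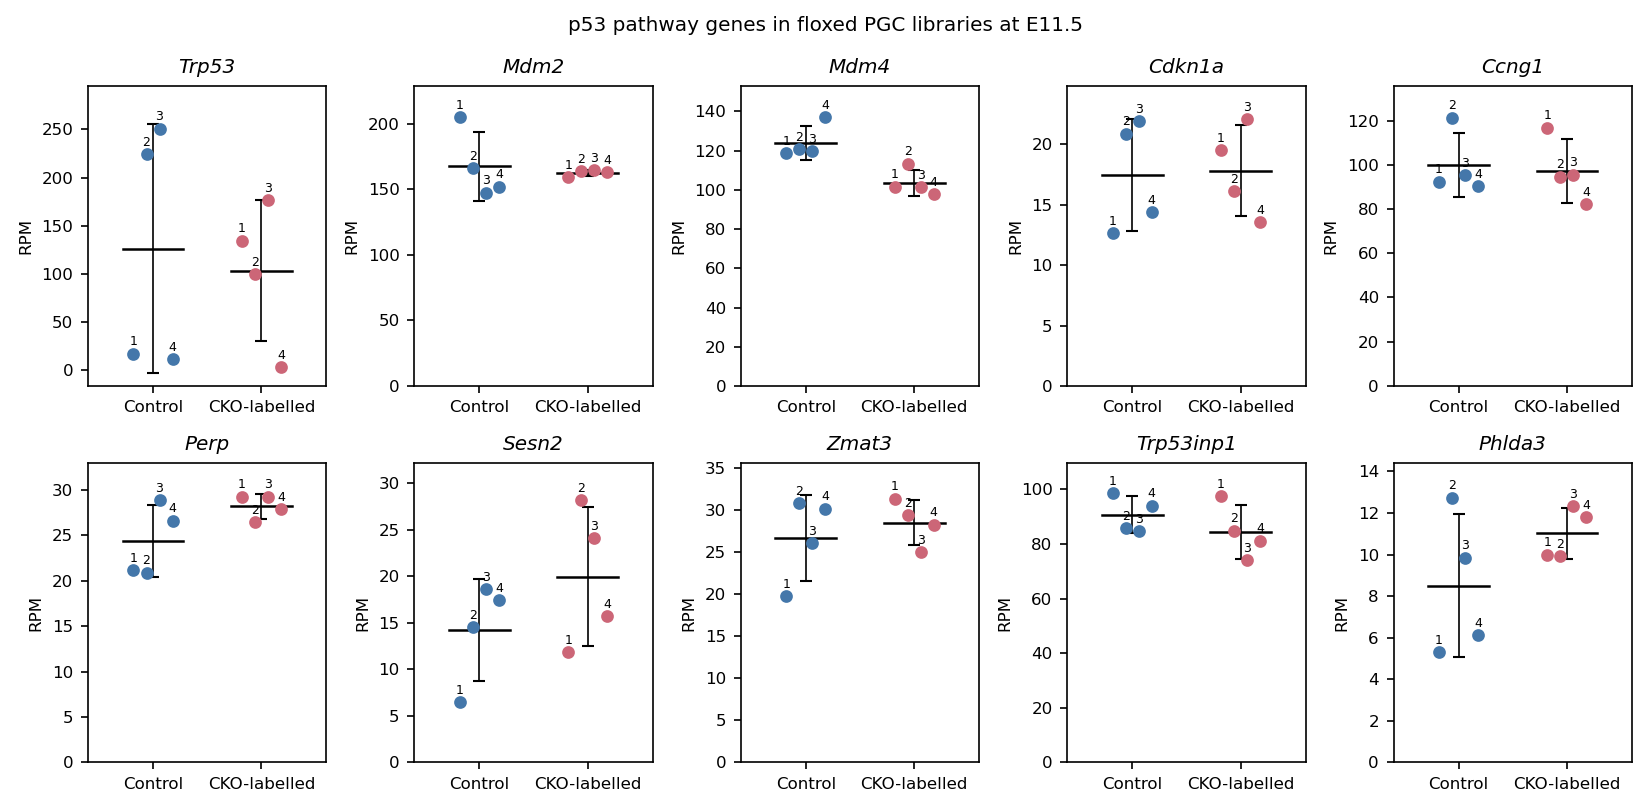
Level (RPM, vertical axis) of each of the 10 genes in the Control (blue) and CKO-labelled (red) libraries, numbered by library, with the mean (line) and SD (bars, n = 4). Trp53 spans 3.57 to 251 RPM with both groups split between low and high libraries, while Mdm4 is the only gene whose groups do not overlap.

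In wild-type PGCs, Trp53 was regular between replicates and was lower at each later stage. It was at 361 and 335 RPM at E10.5 and at 229 and 264 RPM at E11.5. It was at 107 and 113 RPM in males and at 79.4 and 75.7 RPM in females at E13.5. No group overlapped another, and the order was E10.5, E11.5, male E13.5, female E13.5, with the first mean 4.49 times the last. All 3 steps passed the limma test: E11.5 against E10.5 by -0.50 ± 0.12 (log2, SE; adjusted p = 0.0109), male E13.5 against E11.5 by -1.15 ± 0.12 (adjusted p = 6.63e-09), and female against male by -0.50 ± 0.12 (adjusted p = 0.00109). The first of these is the least secure, since it passed in 8 of 14 alternative fits and missed the threshold without either E10.5 library or without E11.5 library 1 (adjusted p = 0.177, 0.0665 and 0.0887).

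From E11.5 to E13.5 Mdm4 was higher where Trp53 was lower, in both sexes, and Mdm2 in males. Mdm2 was at 89.4 and 94.1 RPM at E10.5, 119 and 108 at E11.5, 164 and 149 in males and 124 and 155 in females at E13.5. The sexes overlapped, and both lay above the E11.5 libraries. Mdm2 was higher in males than at E11.5 by 0.46 ± 0.13 (log2, SE; limma adjusted p = 0.00701), a call that was lost without E11.5 library 2 (0.0546), without male library 1 (0.0867) or without the trend in the fit (0.0782). The female difference of 0.29 missed the threshold (adjusted p = 0.0702).

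Mdm4 was at 90.3 and 73.3 RPM at E10.5, 99.0 and 94.8 at E11.5, 142 and 162 in males and 122 and 121 in females. The 4 groups were ordered without overlap, with males highest. It was higher in males than at E11.5 by 0.64 ± 0.13 (log2, SE; limma adjusted p = 0.000383) and in females by 0.32 ± 0.13 (adjusted p = 0.0438). The female call was lost in 8 of 14 alternative fits, among them both other scalings (adjusted p = 0.196 with median-ratio scaling and 0.165 with quantile normalisation) and the removal of any single E11.5 or female library (0.0658 to 0.152). A copy, Mdm4-ps on chromosome X, has no row in the tables, so reads shared with it are uncertain.

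Cdkn1a was at 26.6 and 21.4 RPM at E10.5 and at 26.9 and 45.6 RPM at E11.5. At E13.5 it was at 43.4 and 35.2 RPM in males and 47.2 and 44.1 RPM in females. The E11.5 libraries were the furthest apart of the 4 pairs, and no comparison passed the limma test (adjusted p from 0.172 to 0.627). With single E11.5 libraries the outcome depends on which is kept: without library 1 the step from E10.5 passed (adjusted p = 0.0286), and without library 2 the female difference from E11.5 passed (0.0153). Its highest mean was in females (45.7 ± 2.204 RPM, SD, n = 2) and its lowest at E10.5 (24.0 ± 3.67 RPM, SD, n = 2).

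Ccng1 peaked at E11.5. It was at 42.9 and 50.6 RPM at E10.5, 85.5 and 70.3 at E11.5, 55.1 and 52.5 in males and 48.5 and 56.5 in females. The E11.5 libraries stood above all others, and the sexes overlapped. The rise from E10.5 was 0.72 ± 0.17 (log2, SE; limma adjusted p = 0.0109), and the later fall was -0.52 in males (adjusted p = 0.0156) and -0.56 in females (adjusted p = 0.00709). The rise passed in 9 of 14 alternative fits and was lost, among others, without E10.5 library 1 (adjusted p = 0.176) or E11.5 library 1 (0.0890). The male fall was lost without E11.5 library 1, either male library or the trend (0.0544 to 0.138), and the female fall without E11.5 library 1 or female library 1 (0.0827 and 0.0958).

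Perp and Sesn2 differed between the sexes. Perp was at 16.7 and 24.7 RPM at E10.5, 29.6 and 23.6 at E11.5, 0.334 and 3.17 in males and 17.1 and 15.4 in females. The male libraries held 1 and 9 Perp reads, far below every other library, and the first lies under the 3-read floor. With reads summed over each group, E11.5 exceeded males by 14.8 times (95% exact interval 7.80 to 31.7, counting error only) and females exceeded males by 9.55 times (5.04 to 20.4). The log2 fold change, -3.54 ± 0.39 (SE) in males against E11.5 (limma adjusted p = 3.83e-08), depends on the pseudocount and ranged from -4.48 to -1.65 over the alternatives, all past the threshold. The female minus male difference was 2.87 ± 0.39 (adjusted p = 1.32e-06), and female minus E11.5 was -0.67 (adjusted p = 0.153).

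Sesn2 was at 14.9 and 13.4 RPM at E10.5, 24.9 and 25.6 at E11.5, 30.7 and 31.0 in males and 12.1 and 12.1 in females. Males were highest and females lowest, with no overlap and very close replicates. It was lower in females than in males by -1.28 ± 0.26 (log2, SE; limma adjusted p = 0.000221) and lower than at E11.5 by -1.005 ± 0.26 (adjusted p = 0.00176), both past the threshold in all 14 alternative fits. Male against E11.5 was 0.28 (adjusted p = 0.414), and E11.5 against E10.5 was 0.79 (adjusted p = 0.0711).

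Trp53inp1 was lowest at E10.5 and highest in E13.5 females. It was at 45.6 and 55.4 RPM at E10.5, 68.0 and 58.6 at E11.5, 96.5 and 103 in males and 120 and 127 in females. The groups did not overlap. It was higher than at E11.5 by 0.65 ± 0.15 in males (log2, SE; limma adjusted p = 0.000939) and by 0.95 ± 0.15 in females (adjusted p = 5.95e-06), while the sexes did not differ past the threshold (0.30, adjusted p = 0.111). Its order of groups was the reverse of that of Trp53.

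Zmat3 and Phlda3 were highest at E11.5 on average but varied between replicates. Zmat3 was at 11.7 and 22.7 RPM at E10.5, 32.3 and 24.8 at E11.5, 20.7 and 13.7 in males and 21.5 and 18.9 in females. Phlda3 was at 4.97 and 5.12 RPM at E10.5, 9.43 and 12.8 at E11.5, 3.67 and 8.80 in males and 8.36 and 9.32 in females. Neither passed the limma test in any comparison, the nearest being Zmat3 in males against E11.5 (-0.71 ± 0.29, log2, SE; adjusted p = 0.0546), which passed in 6 of 14 alternative fits.

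**Figure D3:**
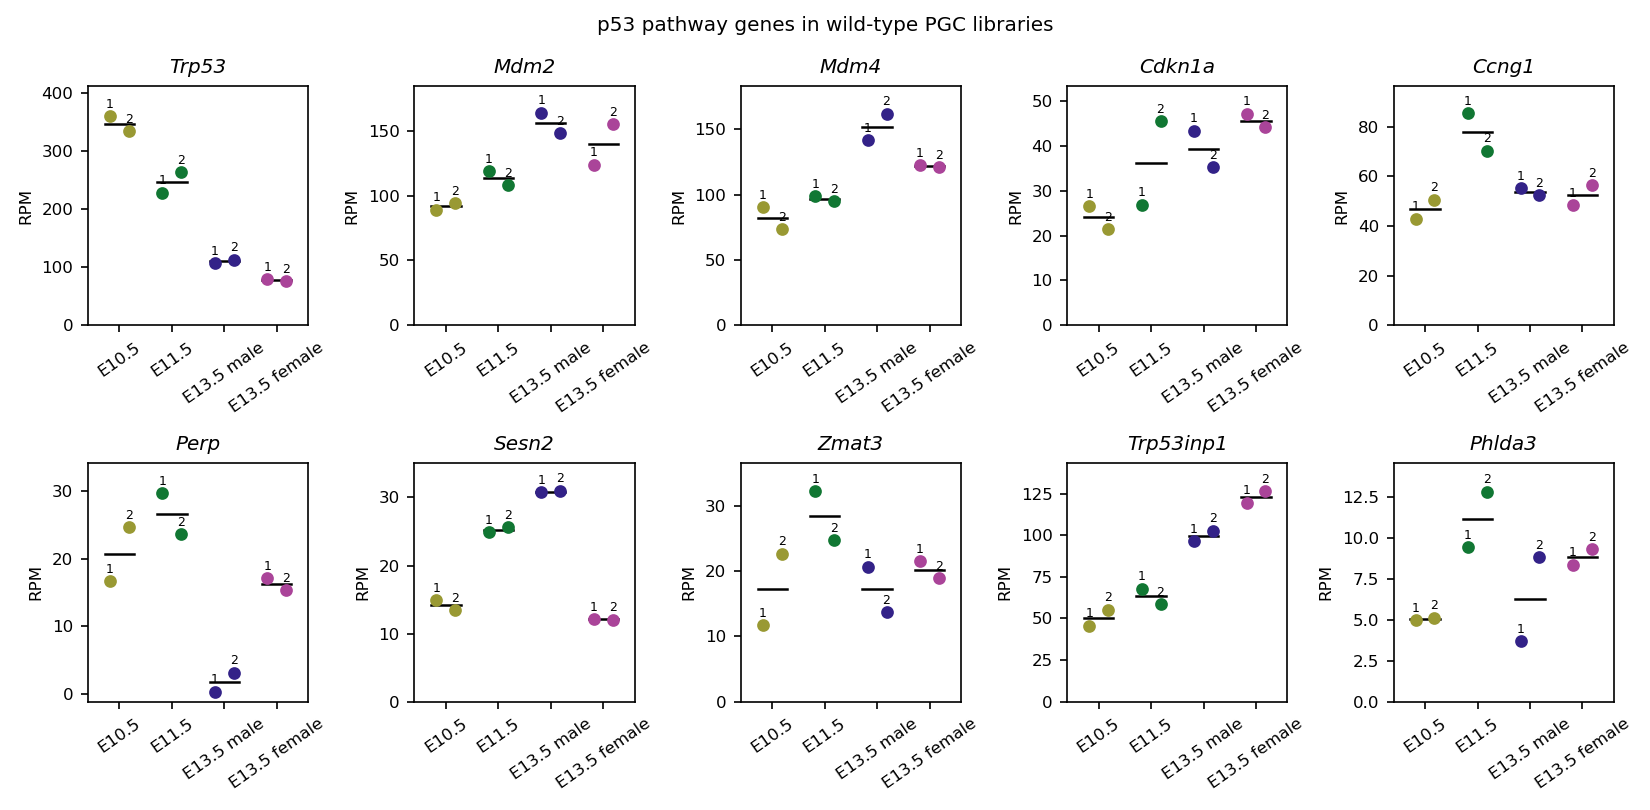
Level (RPM, vertical axis) of each of the 10 genes in the 8 wild-type libraries, by stage and sex, numbered by library, with the mean of each pair (line). Trp53 steps down from 361 to 75.7 RPM, Trp53inp1 steps up from 45.6 to 127 RPM, Perp is at 0.334 and 3.17 RPM in E13.5 males, and Sesn2 is lowest in E13.5 females.

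Counted by step, 1 of the 10 genes was higher and 1 lower at E11.5 than at E10.5, where 4.28% of 10749 tested genes passed in either direction, 2.31% higher and 1.97% lower. At an unadjusted p under 0.05, 7 were higher and 1 lower, the 7 being Mdm2 and all targets other than Perp, where 10.4% of all tested genes were higher and 8.77% lower at that threshold. The median log2 fold change of the 10 was 0.45, against 0.02 over all tested genes. The groups of 9 of the 10 genes did not overlap, against 46.2% of all genes. Other cell types' markers moved over the same step: the summed level of 7 erythroid markers was 227 to 247 RPM at E10.5 and 6.26 to 16.8 RPM at E11.5, and that of 12 gonadal somatic markers was 60.5 to 64.7 and 6.06 to 7.12 RPM, with 6 of the 12 at 0 in both E11.5 libraries. Their part in the differences of Trp53 and Ccng1 was not tested, and in bulk samples fewer cells of a type and less RNA per cell cannot be told apart.

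From E11.5 to E13.5, calls were common over all genes. In males 3 members were higher (Mdm2, Mdm4, Trp53inp1) and 3 lower (Trp53, Ccng1, Perp), where 38.2% of tested genes passed, 22.3% higher and 15.9% lower. In females 2 were higher (Mdm4, Trp53inp1) and 3 lower (Trp53, Ccng1, Sesn2), where 51.2% passed, 31.2% higher and 20.0% lower. The female share, 5 of 10, was near this background. The male share, 6 of 10, was above it, but its Mdm2 and Ccng1 calls were both lost without the trend in the fit. With voom on recovered reads 7 of 10 passed in each sex, 3 higher and 4 lower. The voom share over all genes is not given here, so this 7 is not read against a background. Among all alternative fits, voom included, at most 4204 genes passed in males and 5890 in females. In the main fit 4105 and 5502 did. The groups of 9 of the 10 genes did not overlap in males against E11.5, and of 9 in females against E11.5, where the shares over all genes were 66.2% and 74.9%. The E11.5 libraries serve both comparisons, so agreement between the sexes in these counts is not independent. The median of all genes moved by 0.11 in males and 0.13 in females, and in females it changed to 0.02 with median-ratio scaling and to -0.02 with quantile normalisation. Relative to the female median, the log2 changes were -1.78 for Trp53, -1.14 for Sesn2, -0.69 for Ccng1, 0.19 for Mdm4 and 0.82 for Trp53inp1. Sertoli cell markers (6 genes) summed to 23.2 to 36.1 RPM in males and to at most 2.56 RPM at E11.5, and 12 gonadal somatic markers to 16.2 to 17.4 RPM in males and 6.06 to 7.12 RPM at E11.5. The sum of 5 mesonephric epithelium markers was 78.5 to 81.0 RPM in males, 10.4 to 13.8 in females and 40.4 to 41.0 at E11.5; in males Lhx1 alone, at 77.1 and 80.6 RPM, made up nearly all of it, and 2 to 3 of the 5 were at 0. In females 6 pre-granulosa markers summed to 15.1 to 22.8 RPM, against 4.27 to 4.71 RPM at E11.5, and 7 erythroid markers to 31.2 to 37.6 RPM, against 6.26 to 16.8 RPM. Their part in the E13.5 values was not tested.

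Between the sexes at E13.5, 1 member was higher in females (Perp) and 2 were lower (Trp53, Sesn2), where 37.6% of tested genes passed, 21.2% higher and 16.4% lower. The sexes did not overlap for 6 of the 10 genes, against 71.1% of all genes. With only the E13.5 libraries in the fit, and with voom on recovered reads, 5 passed. The added genes were Mdm4 (lower in females) and Trp53inp1 (higher). Over all genes 4038 passed in the main fit and at most 4803 in any alternative fit. The shares over all genes in those fits are not given, so the 5 is not read against a background.

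**Figure D4:**
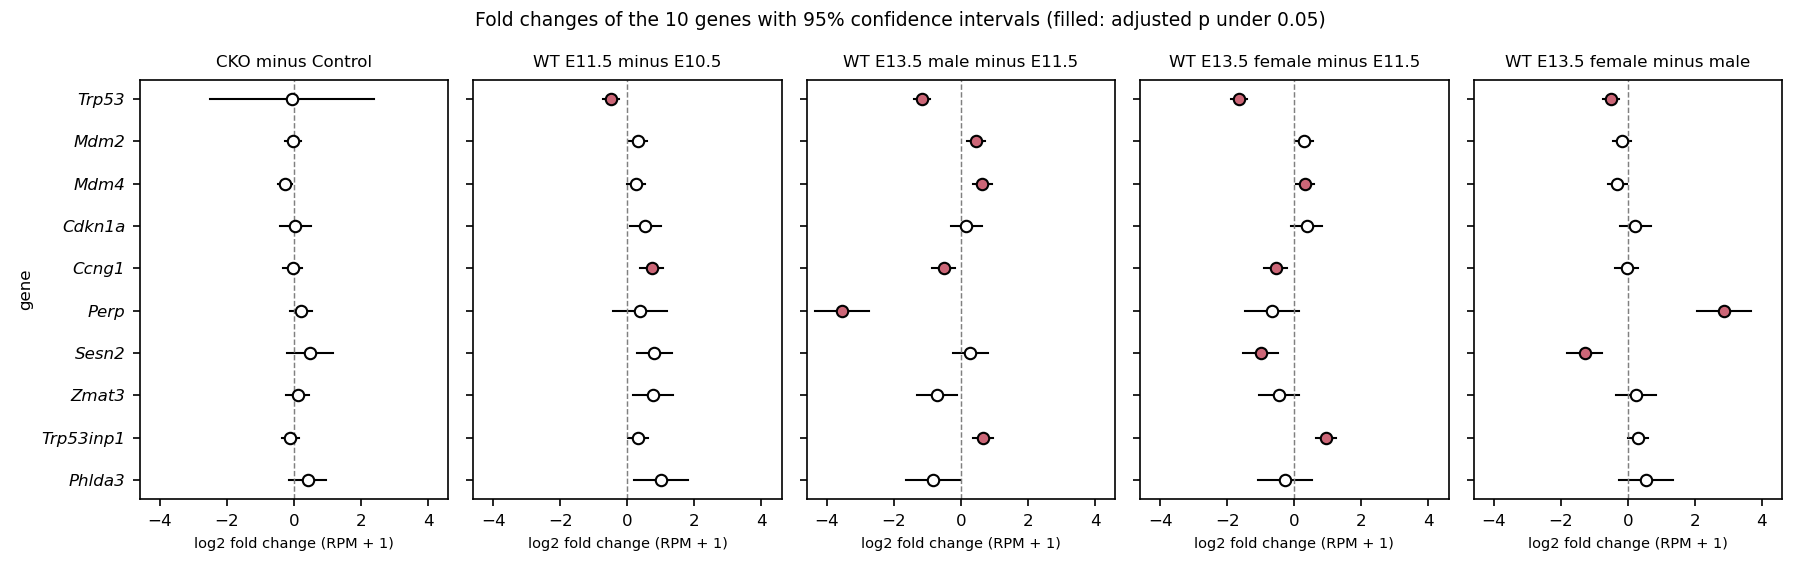
Log2 fold change on the RPM + 1 scale (horizontal axis) with its 95% confidence interval for the 10 genes (rows) in 5 comparisons (panels), filled where the limma adjusted p is under 0.05. No point is filled for CKO against Control, where the interval of Trp53 runs from -2.50 to 2.39, and the most extreme point is Perp in E13.5 males at -3.54.

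The floxed and the wild-type E11.5 libraries were normalised in separate tables and differ in strain and treatment, so their levels are set side by side without a test. For 3 of the 10 genes all 8 floxed libraries lay on 1 side of both wild-type libraries, against 34.4% of 9303 genes tested in both tables. Mdm2 was higher (147 to 205 against 108 to 119 RPM), Trp53inp1 was higher (74.0 to 98.6 against 58.6 to 68.0 RPM) and Cdkn1a was lower (12.7 to 22.1 against 26.9 to 45.6 RPM). Trp53 overlapped only through Control 3, at 251 RPM against 229 and 264 RPM.

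Further genes of the pathway were taken from lists of other known p53 targets (32 genes, 30 found in the tables) and of genes that act on p53 (26 genes). Between CKO-labelled and Control PGCs, 0 of 22 tested targets and 0 of 24 tested regulators passed the limma test, with 1 and 0 higher and 1 and 2 lower at an unadjusted p under 0.05, and voom called 0 of either list. At E11.5 against E10.5, 0 of 23 targets and 0 of 25 regulators passed. At an unadjusted p under 0.05, 2 and 1 were higher and 1 and 0 lower. The voom fit called 1 target, which was lower, and 0 regulators. Its share over all genes is not given here, so this 1 is not read against a background. The median log2 fold changes for that step were 0.16 and 0.04, against 0.02 over all genes.

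From E11.5 to E13.5 the other targets divided. In males 4 of 23 were higher and 5 lower, where 38.2% of all tested genes passed. In females 8 were higher and 8 lower, where 51.2% of all genes passed. The 23 include Sfn and Plk3, which reached the filter without any E13.5 library. The counts of lower genes are therefore not read against the background. Gadd45a, a growth arrest gene induced by DNA damage, fell from 59.0 ± 8.95 RPM at E11.5 to 4.78 ± 1.28 in males and 22.9 ± 0.663 in females (SD, n = 2 each; limma adjusted p = 1.20e-12 and 2.10e-05). Ak1, an adenylate kinase, fell from 81.1 ± 1.53 RPM to 14.1 ± 1.01 and 20.6 ± 0.391 RPM (adjusted p = 6.14e-11 and 4.93e-09). Ppm1d, a phosphatase that turns p53 signalling off, rose from 22.8 ± 4.88 to 60.6 ± 5.00 and 53.8 ± 11.1 RPM (adjusted p = 4.50e-06 and 2.12e-05). Ei24, a protein of the endoplasmic reticulum, rose from 35.01 ± 2.84 to 83.0 ± 13.05 and 80.4 ± 11.46 RPM (adjusted p = 2.13e-06 and 2.45e-06).

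Further targets were lower at E13.5 or differed between the sexes. Sfn, the 14-3-3 sigma protein, was lower than at E11.5 (8.13 RPM) in males (1.85 RPM) and females (0.901 RPM). It reached the filter only through 1 E10.5 library and the E11.5 pair, where it is high, so its calls carry no weight. Plk3, a polo-like kinase, held 31 reads over both E11.5 libraries, 10 over both male libraries and 0 over both female libraries. Plk3 reached the filter only through 1 E10.5 and 1 E11.5 library, without any E13.5 library, so no ratio or test of its fall is given. Fbxw7, the substrate receptor of a ubiquitin ligase, rose from 35.6 to 98.3 RPM in males and to 55.6 RPM in females, and was lower in females than in males (log2 -0.81, limma adjusted p = 0.00145). Between the sexes, where 37.6% of all genes passed, 4 of 23 targets were higher in females, led by Gadd45a (2.07, adjusted p = 2.67e-08) and the repair endonuclease gene Ercc5 (1.44, 0.00125), and 5 were lower, among them Aen (-0.77, 0.00191), Btg2 (-1.05, 0.011) and the row named 9630033F20Rik, an earlier symbol of Tigar (-0.56, 0.00735).

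Among the regulators, Atr and Atm, kinases that signal DNA damage to p53, rose in both sexes, and the kinase Chek1 in females. Atr was at 51.9 ± 13.3 RPM at E11.5, 104 ± 2.44 in males and 162 ± 9.71 in females (SD, n = 2 each; limma adjusted p against E11.5 = 8.41e-06 and 1.68e-09). Atm was at 39.5 ± 10.8, 70.6 ± 8.22 and 103 ± 14.2 RPM (adjusted p = 0.00118 and 1.77e-06). Chek1 was higher in females (84.4 ± 1.98 RPM) than at E11.5 (39.9 ± 3.63 RPM; adjusted p = 6.98e-06), with 49.5 ± 1.78 RPM in males. All 3 kinases were higher in females than in males (adjusted p = 0.002, 0.0338 and 0.000696).

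Deubiquitinases of the pathway moved in opposite directions: Usp7, which acts on MDM2 and p53, rose from 132 RPM at E11.5 to 214 in males and 216 in females, and Usp10, which acts on p53, fell from 155 to 97.2 and 59.0 RPM. Ppp1r13b, which encodes ASPP1, a cofactor of p53, rose from 4.67 to 12.6 and 26.6 RPM. Trim24, a ubiquitin ligase for p53, was lower in males than at E11.5 (73.0 against 104 RPM), and was at 142 RPM in females (limma adjusted p = 0.0103 and 0.0109). Smyd2, a methyltransferase acting on p53, was lower in males (109 RPM) than at E11.5 (169 RPM) and than in females (167 RPM; adjusted p = 0.000513 and 0.00101). Trp53bp1, a p53-binding protein of the DNA damage response, and Trim28, a corepressor, were lower in females than in males (log2 -0.73 and -0.35, adjusted p = 2.46e-05 and 0.000799). Counted over the list, 5 of 25 regulators were higher and 3 lower in males, 10 higher and 3 lower in females, and 8 higher and 3 lower in females than in males. Over all tested genes 38.2%, 51.2% and 37.6% passed in these comparisons, with 22.3%, 31.2% and 21.2% higher. The share of the regulators was near the background in each of these comparisons, so it is not read as a result about them. The median log2 fold changes were 0.19, 0.13 and 0.17, against 0.11, 0.13 and 0.05 over all tested genes.

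**Figure D5:**
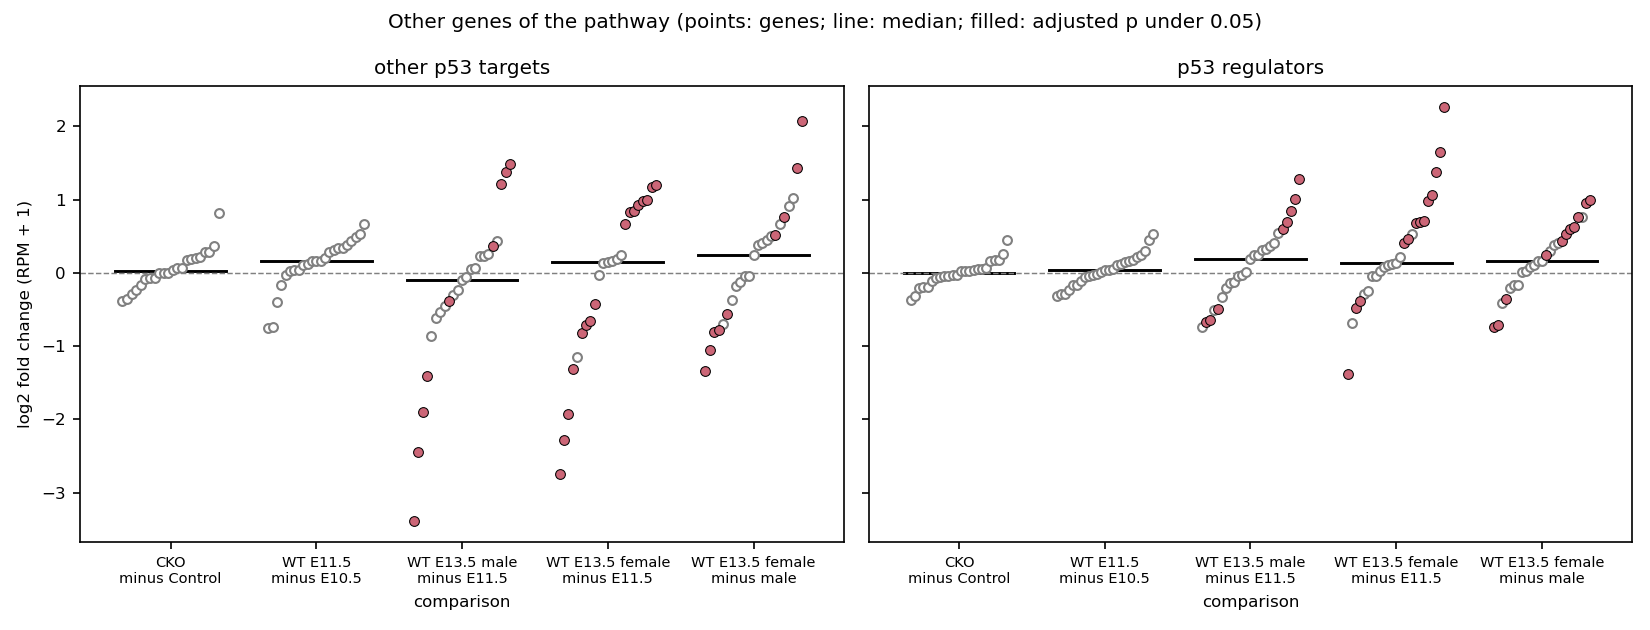
Log2 fold change on the RPM + 1 scale (vertical axis) of the tested genes of the lists of other p53 targets (left) and p53 regulators (right) in 5 comparisons (horizontal axis), one point per gene, with the median as a line and genes past the limma threshold filled. No gene is filled for CKO against Control or for E11.5 against E10.5, and the lowest point, -3.39, is Gadd45a in E13.5 males.

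The relatives of p53 were scarce. Trp63 was at 0.209 to 2.28 RPM in the wild-type and 0.707 to 4.17 RPM in the floxed libraries and passed the filter in neither table. Trp73 passed it in the wild-type table alone, at 5.39 and 5.12 RPM at E11.5 and 2.004 and 0.704 RPM in E13.5 males, with 6 and 2 reads in those males. It reached the filter only through 1 E10.5 library and the E11.5 pair, without any E13.5 library, so no test of its fall is given.

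Genes were ranked by likeness over the 8 wild-type libraries, with symbols of the Gm, LOC and Rik kinds left out. The remaining tested genes most like Trp53 were Dda1 (Pearson r = 0.998), Ss18 (0.992) and Mup6 (0.989). Mup6 is a member of a family of near-identical genes whose reads are uncertain. Those most like Mdm2 were Zfp472 (0.984), Tdrkh (0.982) and Nln (0.981), and those most like Cdkn1a were Zbtb40 (0.963), Popdc3 (0.945) and Mylip (0.936). The 8 libraries share 4 groups, and the genes were picked as the highest of all tested genes that were ranked, so these values are descriptions.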

How the data were processed

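PGC libraries were made with 11 PCR cycles, per the labels' protocols. The authors deposited 2 tables of RPM, scaled so that the gene values of every library have the same sum. Per the submitters' processing notes, cutadapt 1.3, TopHat 1.4.1 and Cufflinks 2.2.0 were used with mm10; counting strand is not given in the sources used here. Value columns not used: 0. Tests used limma 3.58.1 (R 4.3.3) on log2(RPM + 1) (linear model, empirical Bayes with a mean-variance trend, Benjamini-Hochberg adjustment over all tested genes, called under 0.05, two-sided), which was tested on simulated data. Fold changes on this scale understate those of low genes. Genes needed 5 RPM in 4 floxed or 2 wild-type libraries. Each table was fitted over all its groups. Depth came from the RPM steps: 99.67 to 99.80% of positive values were whole reads within 0.05 reads, and depth is rounded.

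The members and lists were chosen with earlier results of these data known. Named were the 10 members, up to 6 called genes with the smallest p per list and comparison, the p53 family and Prdm1. Also named were the 3 genes most correlated with Trp53, Mdm2 and Cdkn1a, symbols of the Gm, LOC and Rik kinds left out. Pf4, Gm19592, Lsm5 and Wrap53 were chosen after their values were seen. Positions and promoter windows are from RefSeq GRCm38.p6; stretches printed for members avoid GENCODE exons. Alternatives covered pseudocounts (0.1, 10), filters (none, 20 RPM), scalings, no trend, a replicate block, a somatic marker covariate, voom and left-out libraries.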

Additional observations from a re-analysis of the deposited data

Results flagged for a closer look

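Among 20 groups of 4 floxed libraries tested for a library far from the rest (10 genes in 2 groups), 2 had one, and chance alone gives about 1 in 20. Mdm4 was at 137 RPM in Control 4, with the other Control libraries at 119 to 121 RPM. Ccng1 was at 121 RPM in Control 2, with the others at 90.4 to 95.4 RPM. The spread of Trp53 was not picked out this way, because more than 1 library was low or high in each group.

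The change from E11.5 to E13.5 differed between the sexes for 3 of the 10 genes, by the limma test of the difference itself, which equals female minus male at E13.5 and which 37.6% of all tested genes passed. It was -0.50 (log2) for Trp53, 2.87 for Perp and -1.28 for Sesn2. Both female libraries lay on 1 side of both male libraries for each of these genes.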

How the results depend on the processing

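Over the 50 values of the 10 genes in 5 comparisons, 672 of 743 alternative values kept their direction and side of the threshold, 28 no longer passed, 20 newly passed and 23 changed sign. No sign change befell any of the 16 called values, and none of the 23 was called. For CKO against Control, Trp53 changed to 0.039 (pseudocount 10), 0.58, 0.63 and 1.16 (without Control 2, Control 3 or CKO 4), 0.59 (without Control 1 and CKO 4 together), 0.35 (somatic marker covariate) and 0.0090 (voom, an alternative chosen after seeing the data). Without single libraries it ranged from -0.81 to 1.16. Mdm2 changed to 0.010 (quantile normalisation), 0.070 (without Control 1) and 0.069 (without Control 1 and CKO 4), with -0.088 to 0.070 without single libraries. Cdkn1a changed to -0.00076 (quantile normalisation) and, without Control 1, Control 4, CKO 1 or CKO 3, to -0.091, -0.034, -0.0066 and -0.064, with a highest value of 0.16. Zmat3 changed to -0.026 (without Control 1) and -0.023 (without Control 1 and CKO 4), with -0.026 to 0.18 without single libraries. Ccng1 changed to 0.057, 0.038 and 0.0038 (without Control 2, without CKO 4, without Control 1 and CKO 4), with -0.13 to 0.057 without single libraries. In wild-type cells Cdkn1a in males changed to -0.21 without E11.5 library 1 (highest 0.52), and for female minus male Zmat3 changed to -0.035 without male library 2 (highest 0.52) and Ccng1 to 0.069 without female library 1 (lowest -0.15). The cause of these changes was not tested.

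Members called stayed at 0 for CKO against Control throughout. Over all genes, 228 calls there became 139 with the 20 RPM filter, which tests fewer genes, and 137 to 204 without single libraries, the lowest without CKO 2. At E11.5 against E10.5 the 2 members called became 0 and the 460 genes 80 without a filter, 0 and 27 without the trend, and 0 and 79 with only those groups fitted. Leaving out single libraries gave 0 to 2 members and 105 to 486 genes, lowest without E10.5 library 1. Members called in females against E11.5 ranged from 3 to 5 without single libraries, and those for female minus male became 5 with only those groups fitted and with voom. All genes called for female minus male reached at most 4803 among the alternatives, against 4038 in the main fit. Of the calls for E11.5 against E10.5, 53.9% were higher, or 43.1% with median-ratio scaling, and 61.0% were higher in females than at E11.5, or 49.3% with quantile normalisation.

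Replicate numbers are shared across groups, and no label says that they mark a shared litter or day. In the floxed table the deviations of same-numbered libraries correlated by 0.02 to 0.25, over 0.1 in 3 of 4 pairs, against -0.23 to 0.18 for other pairs; Control 2 and CKO 2 each correlated better with another number. This is a hint of pairing that falls short of every pair being over 0.1, so the libraries were not treated as pairs. In the wild-type table the correlations were -0.03 to 0.03. The replicate block gave 314 calls for CKO against Control, with 0 members, and 559, 4160, 5563 and 4099 in the wild-type comparisons. The planned edgeR fit was not run, because a small share of values did not come out as whole reads. Depth limits Perp in E13.5 males, and Plk3 and Trp73 in E13.5 libraries of both sexes, where few reads were held.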

Other observations

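Across the 8 floxed libraries, 62 of 9384 tested genes had a Pearson correlation of at least 0.9 in size with Trp53 in log2(RPM + 1), given as a description of libraries that share processing. The widest range among them was 1.62 on the log2 scale, for Lsm5, against 5.78 for Trp53 itself. Below that correlation, Gm19592 also varied widely. It was lowest in Control 1, Control 4 and CKO 4 (0.589, 10.8 and 1.79 RPM), the libraries that were also lowest in Trp53. It was at 142 and 131 RPM in Control 2 and 3, and at 18.1, 41.3 and 199 RPM in CKO 1 to 3. Whether the levels of Gm19592 and Trp53 go together was not tested. Within the list of 10, the next widest range after Trp53 was 1.97, for Sesn2.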
